A study of Mus musculus with 9 samples.

Results

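Of the 19938 genes measured in whole kidneys of mice at 14 and 96 weeks of age, 9 that encode hydrolases or activator proteins of sphingolipid breakdown in the lysosome are described here. They are Psap, Gm2a, Hexa, Glb1, Neu1, Galc, Arsa, Smpd1 and Asah1. The rule that chose them used their names and function and no threshold on expression, but earlier results of these data were known when they were chosen. Each gene had 1 probe set with its own gene symbol on the array, and all 9 were kept. Kidneys came from female wild type mice on a mixed FVB/C57BL6 background, 4 mice at 14 weeks and 5 mice at 96 weeks, with 1 Affymetrix Mouse Gene ST array per mouse. All mice were kept under specific pathogen-free conditions, no treatment is named, and age was the only difference the labels give between the groups. The methods name 5 mice per age, and 4 arrays are labelled as 14 weeks. Mice on a mixed background can differ genetically, and that spread enters every error given here. Kidneys are called young or old and carry the replicate number of their label, used here only to name the mouse. Values are log2 expression after robust multi-array averaging (RMA), a fold change is 96 weeks over 14 weeks, and precision is limited by the small number of arrays. Values of different genes come from different probes and were not ranked against each other.

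Markers of kidney cells were measured in every array. The mean log2 value of Lrp2 (megalin of the proximal tubule) was 12.69 at 14 weeks and 12.68 at 96 weeks, that of Umod (uromodulin of the thick limb) was 12.85 at both ages, and that of Nphs1 (nephrin of the podocyte) was 6.71 and 6.77. Array medians lay between 6.219 and 6.292, so that Nphs1 was only slightly above them. Lrp2, Umod and Nphs1 do not stand for all markers of these cells. Slc5a12 (proximal tubule) and Calb1 (distal nephron) had log2 fold changes of -0.34 and -0.47 (limma, adjusted p = 0.101 and 0.12). That of Wt1 (podocyte) was -0.37 (limma, adjusted p = 0.0242). Log2 fold changes were above 0 for 6 of 10 proximal tubule, 3 of 7 distal nephron and 3 of 4 podocyte markers. No pair of arrays held identical values, and correlations between arrays lay between 0.9785 and 0.9919.

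Glycosphingolipids and sphingomyelin reach the lysosome with endocytosed membrane. There glycosphingolipids lose their sugars from the outer end, 1 after another, until ceramide is left, and sphingomyelin gives ceramide when its phosphocholine is removed. Water-soluble hydrolases cannot reach short sugar chains in a membrane on their own, so small activator proteins lift or expose the lipid for them. Ceramide is finally split into a fatty acid and sphingosine, which leaves the lysosome and can be used again. Inherited loss of nearly any of these steps causes a lysosomal storage disease, and kidney tubules, which take up large amounts of filtered protein and membrane, are among the tissues where stored lipid is found.

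Promoter sequence from RefSeq (build GRCm38.p6) was at hand for 8 of the 9 genes, in 9 entries, since Psap had a second start. Lysosomal genes are known for E-boxes near their start, where factors of the Tfeb family can bind, and the letters CACGTG and, as a longer form that contains them, TCACGTGA were searched on both strands in 300 bases around each start. CACGTG stood in 2 of the 9 entries, those of Glb1 and Arsa, and in 7.15% of all 32851 entries. TCACGTGA stood in none of the 9 and in 0.974% of all entries. The 100 bases before the start are shown for Psap (first start), Hexa and Glb1, the genes that rose at 96 weeks, and for Arsa, which did not rise and is the other gene with the E-box. Each is written 5′ to 3′ on the strand of its gene, with CACGTG in capitals. The stretches lie at chr10:60277528-60277627 (+) for Psap, chr9:59539440-59539539 (+) for Hexa, chr9:114400978-114401077 (+) for Glb1 and chr15:89477425-89477524 (-) for Arsa.
Psap: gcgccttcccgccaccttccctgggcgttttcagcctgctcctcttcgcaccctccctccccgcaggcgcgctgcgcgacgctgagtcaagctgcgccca
Hexa: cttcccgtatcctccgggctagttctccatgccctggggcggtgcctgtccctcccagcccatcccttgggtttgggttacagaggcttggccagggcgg
Glb1: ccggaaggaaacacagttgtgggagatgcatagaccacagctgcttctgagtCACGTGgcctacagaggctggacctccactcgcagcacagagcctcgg
Arsa: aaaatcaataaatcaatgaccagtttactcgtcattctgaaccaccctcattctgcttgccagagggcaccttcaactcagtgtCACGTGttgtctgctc
The first base of the motif lay 48 bases before the start in Glb1, at position -48, and at position -16 in Arsa. A match of letters is a description of the sequence and was not tied to binding in these kidneys.

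Psap, Hexa and Glb1 rose at 96 weeks, and none of the other 6 genes passed the test in either direction. These 3 of 9 genes (33.3%) passed an adjusted p of 0.05 from limma, beside 4.31% of all genes that were higher and 2.4% that were lower at this threshold. The same 3 were also the ones whose lowest old kidney lay above the highest young kidney, which held for 7.49% of all genes. With no adjustment, 4 of the 9 were higher at p under 0.05 (13.3% of all genes), the 3 and Gm2a. Only Hexa passed the threshold named in the methods, a 1.5-fold change with an unadjusted p under 0.05, which 1.28% of all genes passed in the upward direction. As the 9 genes were chosen with earlier results known, these shares describe them and are not a test of the list. The median log2 fold change of the 9 genes was 0.22 (7 above 0 and 2 below), and that of all genes was -0.03. In whole tissue, more cells that express a gene and more RNA per cell cannot be told apart.

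**Figure D1:**
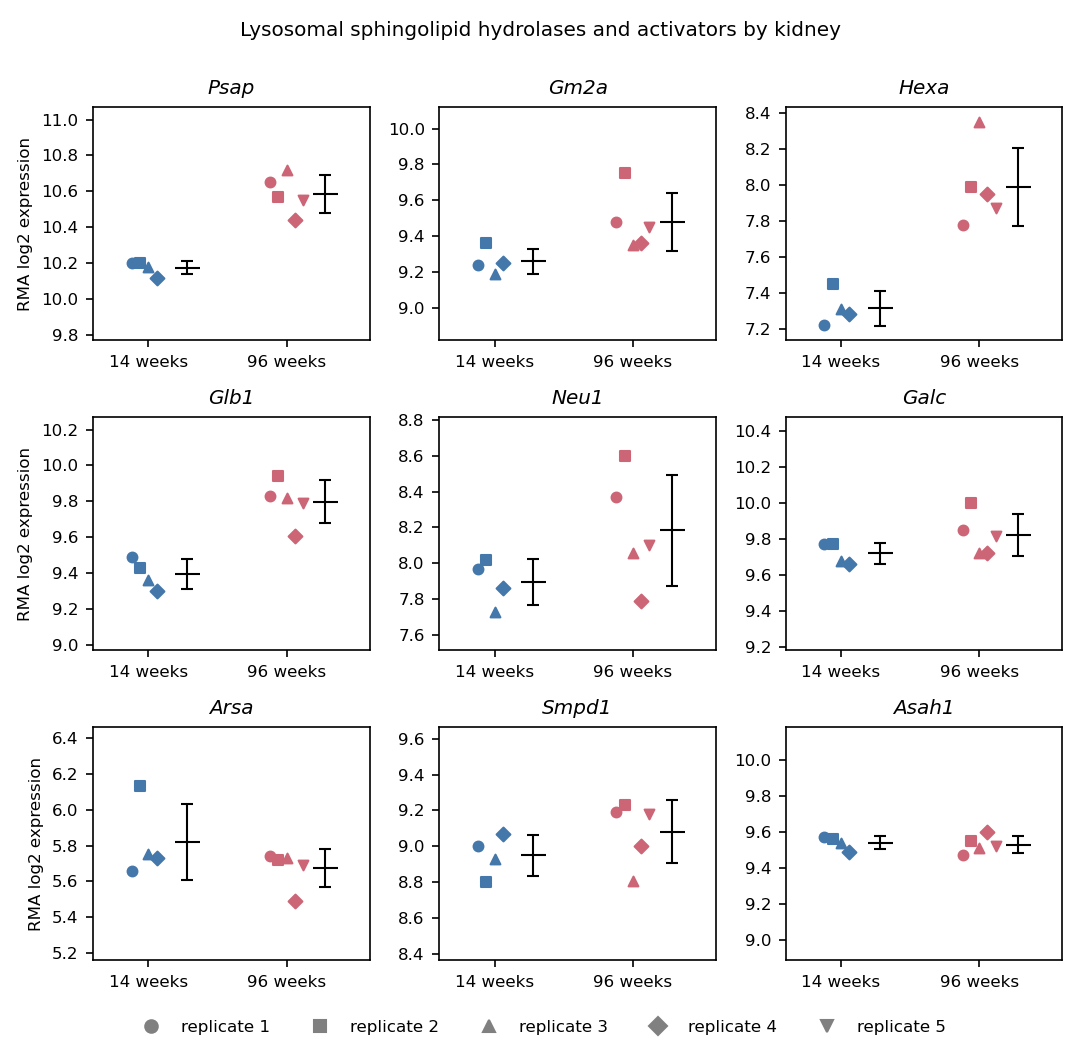
RMA log2 expression (y axis, the same span of values in each panel) of the 9 genes in 4 kidneys at 14 weeks (blue) and 5 kidneys at 96 weeks (red). Each point is 1 mouse, the symbol gives its replicate number, and bars show means with 1 SD. The groups stand apart for Psap, Hexa and Glb1 and overlap for the other 6 genes.

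Of the 2 activators, only Psap rose. Psap encodes prosaposin, the precursor that is cut into saposins A to D, which help Galc, Arsa, Asah1 and other hydrolases reach their lipids. Its log2 values were 10.2, 10.2, 10.18 and 10.12 at 14 weeks and 10.65, 10.57, 10.72, 10.44 and 10.55 at 96 weeks. Every old kidney lay above every young one, with a gap of 0.24 between the groups. Psap rose by 0.41 on the log2 scale, or 1.33-fold (standard error 0.0608, 95% interval 0.27 to 0.54, adjusted p = 0.00773 from limma). The young kidneys differed little among themselves (10.17 ± 0.036, SD, n = 4), and the old ones spread wider (10.58 ± 0.107, SD, n = 5).

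Gm2a encodes the activator that presents a ganglioside to the enzyme made with the Hexa subunit. In young kidneys its log2 values were 9.24, 9.36, 9.19 and 9.25, and in old kidneys 9.48, 9.75, 9.35, 9.36 and 9.45. Old kidneys 1, 2 and 5 lay above all young ones, and kidneys 3 and 4 did not exceed the highest young value. The log2 fold change was 0.22 (standard error 0.0822, 95% interval 0.04 to 0.40), and the adjusted p from limma was 0.125, at an unadjusted p of 0.0239. Without old kidney 2, which held the highest value, the log2 fold change was 0.15 (adjusted p = 0.149 from limma).

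Of the 4 enzymes that remove sugars, Hexa and Glb1 rose. Hexa encodes the alpha subunit of beta-hexosaminidase, the enzyme whose loss causes Tay-Sachs disease. Its log2 values were 7.22, 7.45, 7.31 and 7.28 at 14 weeks and 7.78, 7.99, 8.35, 7.95 and 7.87 at 96 weeks. The groups did not overlap, and old kidney 3 stood above the other 4. Hexa rose by 0.67 on the log2 scale, or 1.6-fold (standard error 0.105, 95% interval 0.44 to 0.91, adjusted p = 0.00871 from limma), and ranked 211 of 19938 by log2 fold change. Without old kidney 3 the rise was 0.58 (adjusted p = 0.00517 from limma), which is 1.499-fold and just under the threshold of the methods.

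Glb1 encodes the acid beta-galactosidase, which removes galactose from gangliosides and whose activity is the usual stain for senescent cells. Values of Glb1 were 9.49, 9.43, 9.36 and 9.3 at 14 weeks and 9.83, 9.94, 9.82, 9.61 and 9.79 at 96 weeks. The groups did not overlap, with old kidney 4 closest to the young ones at a gap of 0.12. Glb1 rose by 0.40 on the log2 scale, or 1.32-fold (standard error 0.0703, 95% interval 0.25 to 0.56, adjusted p = 0.0124 from limma). For Psap, Hexa and Glb1 the exact two-sided permutation p was 0.0159, the smallest that splits of 9 kidneys into 4 and 5 can give.

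Neu1 encodes the lysosomal sialidase, which removes terminal sialic acid and works in a complex with Glb1 and cathepsin A. Its log2 values were 7.97, 8.02, 7.73 and 7.86 at 14 weeks and 8.37, 8.6, 8.06, 7.79 and 8.1 at 96 weeks. It had the widest spread of the 9 genes among old kidneys (8.18 ± 0.311, SD, n = 5), with kidneys 1 and 2 well above the young range and kidney 4 inside it. The log2 fold change was 0.29 (standard error 0.144, 95% interval -0.03 to 0.60, adjusted p = 0.214 from limma). It was 0.18 without old kidney 2 and 0.38 without old kidney 4 (adjusted p = 0.336 and 0.0934 from limma). The interval of Neu1 includes 0 and also the log2 fold changes of Psap and Glb1, the protein's partner, so that these data do not set it apart from them.

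Galc encodes galactosylceramidase, which acts on the galactolipids of myelin and of kidney epithelium. Values of Galc were 9.77, 9.77, 9.68 and 9.66 at 14 weeks and 9.85, 10, 9.72, 9.72 and 9.82 at 96 weeks. Old kidneys 1, 2 and 5 lay above the young range, and 3 and 4 lay inside it. The log2 fold change was 0.10 (standard error 0.0651, 95% interval -0.04 to 0.25, adjusted p = 0.309 from limma).

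**Figure D2:**
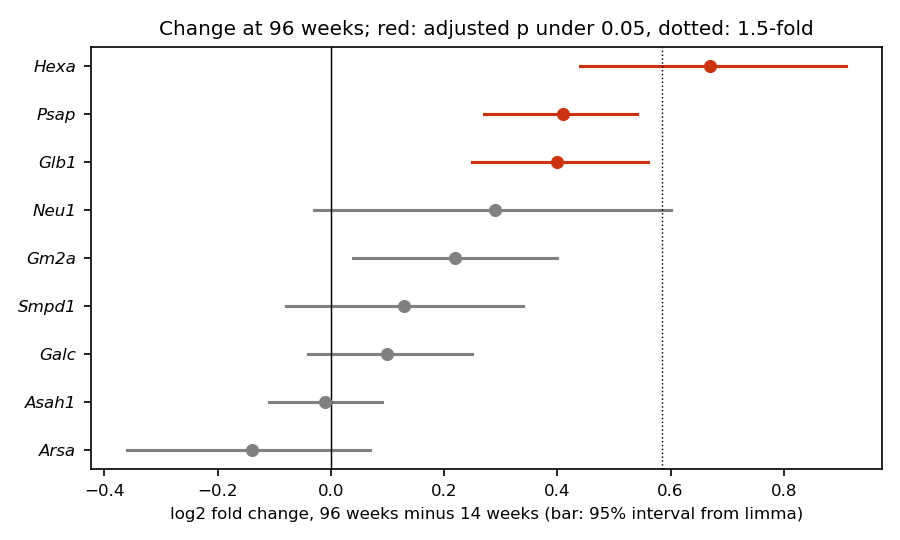
Log2 fold change at 96 weeks (x axis) of the 9 genes, in order of size, with the 95% interval from limma. Red marks an adjusted p under 0.05 and the dotted line a 1.5-fold change. The intervals of Hexa (0.44 to 0.91), Psap (0.27 to 0.54) and Glb1 (0.25 to 0.56) lie above 0, as does that of Gm2a (0.04 to 0.40), which did not pass after adjustment.

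Arsa, the sulfatase that turns sulfatide into galactosylceramide, the substrate of Galc, had a log2 fold change below 0. Means of Arsa, 5.82 at 14 weeks and 5.67 at 96 weeks, lay below every array median (6.219 to 6.292). A probe set this dim may show little of a change, and no signal over background was at hand for Arsa. Its log2 values were 5.66, 6.13, 5.75 and 5.73 at 14 weeks and 5.74, 5.72, 5.73, 5.49 and 5.69 at 96 weeks. Young kidney 2 and old kidney 4 stood apart from the rest of their groups, and the other 7 kidneys lay between 5.66 and 5.75. The log2 fold change was -0.14 (standard error 0.0959, 95% interval -0.36 to 0.07, adjusted p = 0.331 from limma), and it was -0.04 without young kidney 2 (adjusted p = 0.728 from limma). The 2 genes with the E-box printed above, Glb1 and Arsa, thus had log2 fold changes of 0.40 and -0.14, that of Arsa from dim values.

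The 2 enzymes at the ceramide end did not pass the test. Smpd1, the acid sphingomyelinase, makes ceramide from sphingomyelin and is deficient in Niemann-Pick disease types A and B. Log2 values of Smpd1 were 9.0, 8.8, 8.93 and 9.07 at 14 weeks and 9.19, 9.23, 8.81, 9.0 and 9.18 at 96 weeks. Old kidneys 1, 2 and 5 lay above the young range, whereas kidney 3 lay near its lower end. The log2 fold change was 0.13 (standard error 0.0939, 95% interval -0.08 to 0.34, adjusted p = 0.366 from limma), and 0.20 without old kidney 3 (adjusted p = 0.135 from limma).

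Asah1 encodes acid ceramidase, which splits ceramide into sphingosine and a fatty acid and is the last enzyme of the path. Log2 values of Asah1 were 9.57, 9.56, 9.54 and 9.49 at 14 weeks and 9.47, 9.55, 9.51, 9.6 and 9.52 at 96 weeks. The 9 kidneys lay within a narrow range at both ages, with means of 9.54 ± 0.037 (SD, n = 4) and 9.53 ± 0.051 (SD, n = 5). The log2 fold change was -0.01 (standard error 0.0465, adjusted p = 0.897 from limma). Its 95% interval was the narrowest of the 9 and ran from -0.11 to 0.09, or from 0.924-fold to 1.07-fold, which leaves out a change as large as those of Psap, Hexa and Glb1.

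The old kidneys differed from each other in which of these genes were highest. Old kidney 2 held the highest value of Glb1, Gm2a, Galc, Neu1 and Smpd1, kidney 3 that of Psap and Hexa, and kidney 4 the lowest value of Psap, Glb1, Galc, Arsa and Neu1. Set against the mean of the young kidneys, Hexa was higher by 0.47, 0.67, 1.03, 0.64 and 0.56 in old kidneys 1 to 5. For Neu1 the same differences were 0.47, 0.70, 0.17, -0.11 and 0.20. The kidney with the largest Hexa difference thus had 1 of the smaller Neu1 differences, and kidney 4, above the young range for Hexa, was below the young mean for Neu1. Averaged over the 9 genes, each centred on its own mean, old kidneys 1 to 5 lay at 0.13, 0.24, 0.09, -0.03 and 0.08, and the young ones between -0.17 and -0.06.

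Markers of other cells moved with age as well. Of 14 macrophage and dendritic cell markers, all had log2 fold changes above 0, as had 8645 of all 19938 genes. Past 1.5-fold with an unadjusted p under 0.05 from limma were 9 of them, beside 1.28% of all genes. An adjusted p of 0.05 from limma was passed upward by 3, beside 4.31% of all genes. Among these were Lyz2 (lysozyme, log2 fold change 2.54, adjusted p = 0.00537) and Csf1r (receptor of a macrophage growth factor, 0.45, adjusted p = 0.0153). For Cd68, itself a lysosomal membrane protein of macrophages, the value was 0.79 (limma, adjusted p = 0.112). The mean of these 14 markers, centred in the same way, lay between -0.45 and -0.42 in young kidneys and at 0.14, -0.17, 0.86, 0.93 and -0.01 in old kidneys 1 to 5. Old kidneys 3 and 4 were thus highest for macrophage markers, and old kidney 2 was lowest among the old. Of the 3 genes that rose, Psap and Hexa were highest in old kidney 3, and Glb1 in old kidney 2. Psap and Glb1 were lowest among the old in kidney 4, and Hexa in kidney 1. Without kidneys 3 and 4, the log2 fold changes were 0.41 for Psap (adjusted p = 0.00905), 0.57 for Hexa (adjusted p = 0.00955) and 0.46 for Glb1 (adjusted p = 0.0127), all from limma. In the 3 kidneys left, the macrophage mean was still above every young kidney, and its part in the rise of the 3 genes was not tested.

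Of 10 proximal tubule markers none passed, with a mean between -0.03 and 0.02 in young kidneys and at 0.04, 0.16, -0.09, -0.13 and 0.03 in old kidneys 1 to 5. Among old kidneys, kidney 2 was highest and kidney 4 lowest for these markers, as for the mean of the 9 genes. The same held for podocyte markers (0.18 and -0.15). Distal nephron markers were also highest in kidney 2 (0.14) but lowest in kidney 3 (-0.28). For markers of B, plasma and T cells, kidney 2 was lowest (-0.02) and kidney 4 highest (1.61). This order was thus not particular to the proximal tubule. Among 9 markers of B, plasma and T cells 2 passed upward, beside 4.31% of all genes. Their mean lay between -0.84 and -0.79 in young and between -0.02 and 1.61 in old kidneys. None of 7 distal nephron and 5 adipocyte markers passed, and 1 of 4 podocyte markers, Wt1, was lower (-0.37), beside 2.4% of all genes. The part of these cells in the values of the 9 genes was not tested.

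**Figure D3:**
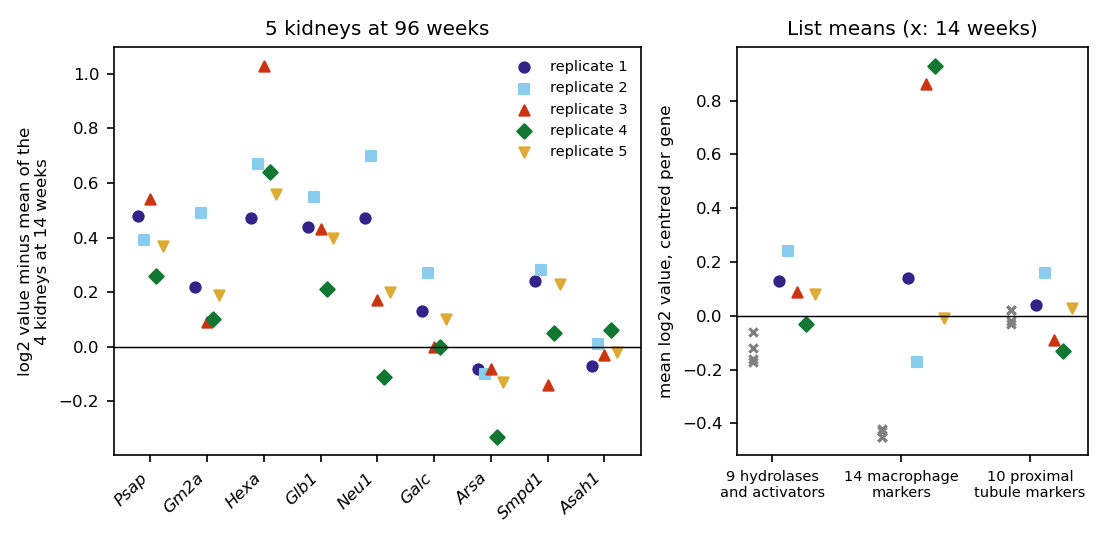
Left, log2 value of each gene in each old kidney minus the mean of the 4 young kidneys (y axis), with the zero line at the young mean. Right, mean centred log2 value per kidney of the 9 genes, 14 macrophage and 10 proximal tubule markers, with young kidneys as grey crosses. Kidney 3 is highest for Hexa at 1.03, kidney 2 for Neu1 at 0.70, and kidneys 3 and 4 are highest for macrophage markers at 0.86 and 0.93.

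Of 8 further genes of lysosomal sphingolipid breakdown, 2 were higher, none was lower at an adjusted p of 0.05, and the median log2 fold change was 0.08. Ctsa, cathepsin A, which protects Neu1 and Glb1 in their complex, had log2 values of 9.64, 9.8, 9.63 and 9.66 at 14 weeks and 10.12, 9.97, 10.19, 9.85 and 10 at 96 weeks. The rise was 0.34 on the log2 scale (limma, standard error 0.0734, adjusted p = 0.0258). In this complex Glb1 and Ctsa thus passed the test and Neu1 did not, and the differences between the 3 genes were not tested. Npc2, a small cholesterol-binding protein inside the lysosome, had a mean of 9.5 ± 0.219 at 14 weeks (SD, n = 4) and 9.92 ± 0.055 at 96 weeks (SD, n = 5). The rise was 0.43 (limma, standard error 0.0915, adjusted p = 0.0254). Leaving out young kidney 1, 3 or 4 or old kidney 1 ended the call of both genes, and leaving out old kidney 2 also ended that of Npc2, with adjusted p-values up to 0.0728 for Ctsa and 0.0688 for Npc2 from limma. Scarb2, a membrane protein of the lysosome that also serves as a sorting receptor, had no overlap between the ages (log2 fold change 0.36) but missed the threshold (limma, adjusted p = 0.0525). Gla, the alpha-galactosidase lost in Fabry disease, differed by 0.09 (limma, adjusted p = 0.3).

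Sphingolipids are also broken down outside the lysosome. Of 15 genes of neutral and alkaline hydrolases and of sphingosine phosphate removal, none passed upward and 1 was lower, beside 2.4% of all genes. Their median log2 fold change was -0.04. Sgpp1, which takes the phosphate off sphingosine phosphate, had log2 values of 9.77, 9.78, 9.77 and 9.81 at 14 weeks and 9.49, 9.56, 9.43, 9.5 and 9.64 at 96 weeks. It fell by 0.26 on the log2 scale (limma, standard error 0.0511, adjusted p = 0.0189), and no old kidney reached the young range. Without young kidney 4, the adjusted p was 0.0546 from limma. Asah2, the neutral ceramidase, differed by -0.07 (limma, adjusted p = 0.612), and Gba2, the glucosylceramidase outside the lysosome, by 0.00 (adjusted p = 0.987).

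Of 32 genes of sphingolipid synthesis and its control, 31 had a value, and Cers1 was not analysed here. None passed limma's test after adjustment, and at an unadjusted p under 0.05 5 were higher (16.1%) and 2 lower (6.45%), beside 13.3% and 15.3% of all genes. The median log2 fold change was 0.01, in a range from -0.50 (Sptlc3, a subunit of the first enzyme) to 0.35 (Ugcg, which makes glucosylceramide). The smallest p was that of Cers6, a ceramide synthase for shorter acyl chains, with -0.23 on the log2 scale (limma, adjusted p = 0.0682).

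Lysosomal hydrolases with other substrates were measured by 28 genes. At an adjusted p of 0.05 from limma 6 of them rose and none fell, beside 4.31% and 2.4% of all genes. Their median log2 fold change was 0.18, and 26 of 28 were above 0, as were 8645 of all 19938 genes. The largest rise among those that passed was that of Ctsz, a cathepsin, at 0.67 (standard error 0.0847, adjusted p = 0.00414 from limma), as large as that of Hexa. Ctsd, the aspartic protease that also cuts prosaposin, was higher by 0.56 (limma, standard error 0.0777, adjusted p = 0.00574). The others were the protease genes Ctsb (0.34, adjusted p = 0.0126) and Ctsh (0.29, adjusted p = 0.0385), Fuca1 for fucose (0.33, adjusted p = 0.0193) and Gusb for glucuronic acid (0.38, adjusted p = 0.0459), all from limma. Ctsc, a protease of immune cells, missed the threshold at 0.60 (limma, adjusted p = 0.14). Ctsz and Ctsd passed under all 18 alternative settings, whereas Ctsb failed under 1, Fuca1 under 3, Ctsh under 13 and Gusb under 14 of them. Ctsh failed without any 1 kidney other than old kidney 3 (adjusted p up to 0.0905), Gusb without any 1 other than old kidney 5 (up to 0.118), and Fuca1 without young kidney 3 (0.0518), all from limma.

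Genes for the lysosomal membrane, its proton pump and the delivery of enzymes were nearer to the median of all genes. Of 18 listed, 17 had a value (M6pr was not analysed here), and 1 rose, beside 4.31% of all genes. Their median log2 fold change was 0.04. Atp6ap1, an accessory subunit of the proton pump, was higher by 0.19 (limma, standard error 0.0468, adjusted p = 0.0394). This call was lost without any 1 kidney other than old kidney 1 (limma, adjusted p up to 0.0968). Lamp1 and Lamp2, the main proteins of the lysosomal membrane, differed by 0.09 and -0.08 (limma, adjusted p = 0.285 and 0.284). Tfeb and Tfe3, factors that bind lysosomal E-boxes, both differed by 0.04 (limma, adjusted p = 0.589 and 0.613). Means of Tfe3 (5.89 at 14 weeks and 5.93 at 96 weeks) lay below every array median. Those of Tfeb (6.35 and 6.39) lay only slightly above, and probe sets this dim may show little of a change. Scarb2, Gla, Asah2, Gba2, Sptlc3, Ugcg, Ctsc, Lamp1, Lamp2, Tfeb, Tfe3, Slc5a12, Calb1 and Wt1 were named after their values were seen.

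**Figure D4:**
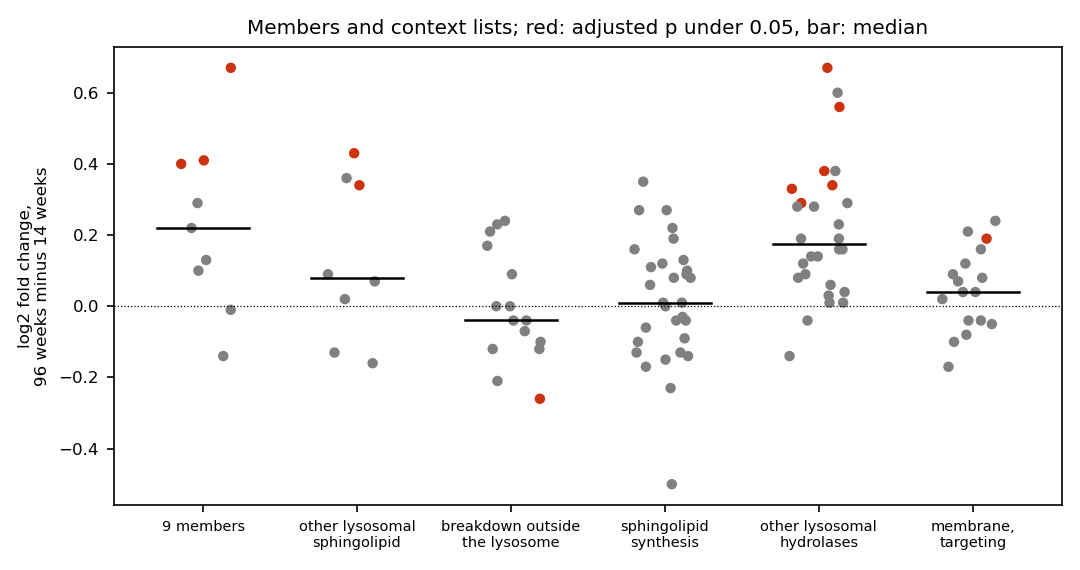
Log2 fold change at 96 weeks (y axis) of the 9 genes and of 5 further lists, with 1 point per gene, red for an adjusted p under 0.05 and a bar at the median. Medians are 0.22 for the 9 genes, 0.08 for other lysosomal sphingolipid genes, -0.04 for breakdown outside the lysosome, 0.01 for synthesis, 0.18 for other lysosomal hydrolases and 0.04 for membrane and targeting genes.

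The genes nearest to the mean profile of the 9 over the 9 arrays, by root mean square difference of centred log2 values, were Mfsd4b5 (0.034), Lcmt2 (0.0368), Tcf25 (0.0369), Mprip (0.0382) and Copa (0.042). Of the 9 genes themselves, Gm2a (0.0638) and Galc (0.0748) lay nearest to that mean and Hexa (0.275) and Arsa (0.214) farthest. No function is read from this likeness.

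Psap, Hexa and Glb1 passed under each of 18 alternative settings, and the other 6 genes under none. Across these settings the log2 fold change ran from 0.32 to 0.45 for Psap, from 0.57 to 0.73 for Hexa and from 0.33 to 0.46 for Glb1, with the lowest values of Psap and Glb1 after the arrays were normalized again. Gm2a ran from 0.15 to 0.30, Galc from 0.03 to 0.17, Neu1 from 0.18 to 0.46 and Smpd1 from 0.06 to 0.25. Arsa stayed below 0, between -0.20 and -0.04, and Asah1 ran from -0.08 to 0.01.

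**Figure D5:**
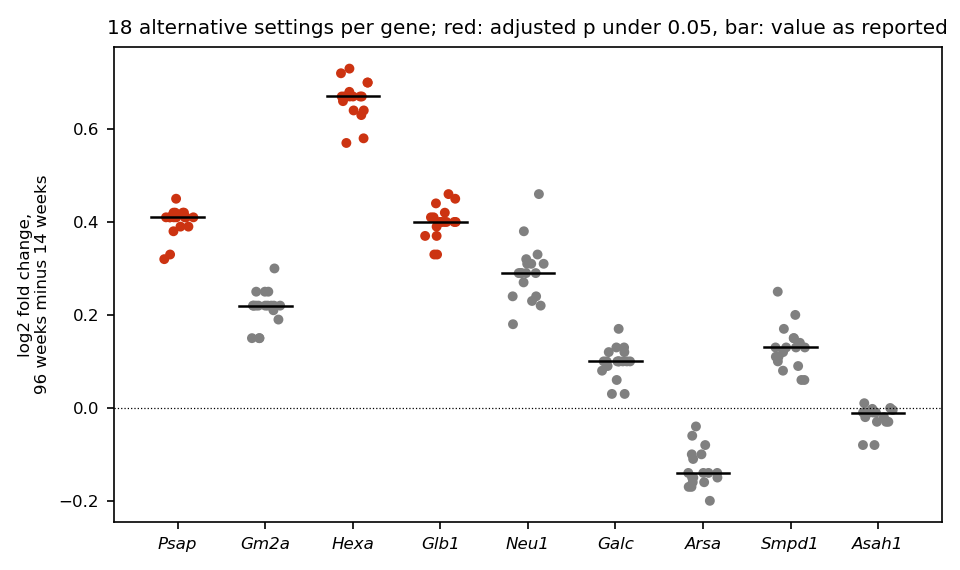
Log2 fold change at 96 weeks (y axis) of the 9 genes under 18 alternative settings, with 1 point per setting, red for an adjusted p under 0.05 and a bar at the value as reported. All points of Psap, Hexa and Glb1 are red and those of the other 6 genes are grey.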

How the data were processed

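Whole kidney RNA of 9 mice was hybridised to Affymetrix Mouse Gene 1.0 ST arrays. The authors processed the scans with RMA in Affymetrix Power Tools, version 1.12.0, per the labels, and the deposited table holds log2 values of 35557 probe sets. No signal over background was at hand. Probe sets with 1 gene symbol (21789) were used, those with several (1621) or none (12147) were left out, and the brightest probe set stood for each of the 999 genes with more than 1, which gave 19938 genes. Age groups, taken from the labels, were compared over all genes with limma 3.58.1 (lmFit, eBayes) in R 4.3.3, with Benjamini-Hochberg adjustment over all 19938 genes and no filter on dim genes. The study's methods used a t-test with a 1.5-fold threshold and an unadjusted p under 0.05. That t-test is among the 18 alternatives, but with Benjamini-Hochberg adjustment and no fold threshold. The others were array weights, a trended variance prior, a filter at the 30th percentile, repeated quantile normalization, cyclic loess, the mean of a gene's probe sets, a block for replicate number, leaving out old kidneys 3 and 4 together, and leaving out each of the 9 arrays. The tests set the difference between the ages against the spread between mice. Exact permutation tests used scipy 1.17.1 in Python 3.11.15. The fit was checked on simulated data. Genes named were the 9 members, the genes of 5 further lists that passed (or had the smallest p), fixed marker genes and the 5 nearest profiles, and a few more that the text marks. Members and lists were chosen with earlier results of these data known. Lists were described by counts and medians without a set test.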

Additional observations from a re-analysis of the deposited data

Results flagged for a closer look

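Arsa in old kidney 4 had a log2 value of 5.49, while the other 4 old kidneys lay between 5.69 and 5.74, a gap of 0.812 of the range of the group. It is listed because this lowest value stood apart from the others of its group, and it was the 1 such case among 18 groups of arrays (9 genes at both ages). Chance alone gives about 1 such case in 20 groups.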

How the results depend on the processing

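Of 162 values for the 9 genes (9 genes under 18 alternatives), 161 kept their direction and their side of an adjusted p of 0.05, and Asah1 changed sign to 0.01 without old kidney 1 (-0.03 to 0.01 without single kidneys). Counts that passed were less stable. For all genes, 1339 passed, against 367 with the methods' t-test at the same adjusted p of 0.05 and no fold threshold. The count was 368 with the replicate block and 528 to 1135 when single kidneys were left out. Of those that passed 64.2% were higher, against 53.0% (533 higher and 473 lower) after repeated quantile normalization. The labels name no pairing by replicate number, and deviations of same-numbered mice correlated at 0.076, 0.021, -0.037 and 0.012. These were not set against mice of different numbers, so that a pairing was not tested. With the replicate block, Psap (0.42), Hexa (0.70) and Glb1 (0.41) passed. The 2 further lysosomal sphingolipid genes became 0 with the t-test and the block, 1 after repeated quantile normalization, cyclic loess or without old kidneys 3 and 4, 3 with the filter at the 30th percentile or the trended variance prior, and 0 to 2 without single kidneys. The 6 other hydrolases became 3 with the t-test, 2 with the block and 3 to 5 without single kidneys. The 1 membrane and targeting gene became 2 with array weights or a filter at the 30th percentile, 0 after both normalizations, with the block and without old kidneys 3 and 4, and 0 to 1 without single kidneys. Outside the lysosome, the 1 lower gene became 0 with the block and without old kidneys 3 and 4, where 1 gene was higher, and 0 to 1 without single kidneys. For synthesis, 1 lower gene passed after both normalizations and 0 to 1 without single kidneys. Hexa was under 1.5-fold without old kidneys 3 and 4 (0 genes past it, 1.48-fold) and without old kidney 3 (0 to 1 without single kidneys). The causes were not tested. Each of the 9 genes had 1 probe set, so the choice of probe set could not move their values.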
